A study of Mus musculus with 1 sample.

Results

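The cells described here were young upper-layer excitatory neurons carrying Igfbpl1, taken from a sc-RNA Seq (single-cell RNA sequencing) data set of newborn mouse cortex. The data came from 1 library of P0 (day of birth) wildtype (WT) C57BL/6 cerebral cortex, made with droplet capture, in which a unique molecular identifier (UMI) counts each captured transcript once. All groups below are cells of this library, so there was no replicate, no difference could be tested over animals, and every interval in brackets is a 95% interval for counting error only. Members were chosen by UMI counts. A cell needed at least 1000 detected genes, at least 2 UMIs of Neurod2 and Neurod6 together, at most 1 UMI of Gad1 and Gad2, and no UMI of Eomes, Top2a or Mki67. It also needed a summed upper-layer score (Adamts2, Cntn2, Hs6st2 and Pou3f2) of at least 5 UMIs that was at least 2 times each of the layer IV, layer V and layer VI scores, and at least 1 Igfbpl1 UMI. Of 11062 cells, 2744 passed the gate without regard to Igfbpl1, and 2695 of these, or 98.2% [97.6 to 98.7], were members. The members made up 24.4% of all cells, and only 49 gated cells were without an Igfbpl1 UMI.

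Excitatory neurons of the cortex are born from radial glia and Eomes-positive intermediate progenitors, migrate outward, and then lay down axons, dendrites and synapses. Upper-layer neurons are the last to be born and form connections within the cortex, so that at birth many of them are still settling. Igfbpl1 encodes a secreted protein related to the binding proteins of insulin-like growth factors and is known as a gene of developing neurons. Of the genes of the score, Pou3f2 is a POU transcription factor of upper-layer neurons, Cntn2 an adhesion molecule of growing axons, Hs6st2 a heparan sulfate 6-O-sulfotransferase and Adamts2 a protease that trims procollagen.

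The members held between 1491 and 47452 UMIs with a median of 7180, a median of 3004 detected genes and a median mitochondrial share of 3.37%. Doublet calling marked 112 of them (4.16%), and the calls were kept except in the alternatives. Igfbpl1 ranged from 1 to 56 UMIs per cell with a median of 11 (quartiles 7 and 17). Few members therefore sat at the edge of the Igfbpl1 rule, with 49 cells at 1 UMI and 74 at 2 UMIs, and 83.1% had more than 5. The score itself had a sharper edge, with 132 members at its minimum of 5 UMIs. The 144 cells that scored 4 with the same dominance lay just outside, and 135 of them carried Igfbpl1. In 43.2% of members the scores of all other layers were 0. Among the genes of the score, Pou3f2 was found in 98.7% of members at 1081 CPM (the UMIs of a gene per 1000000 non-mitochondrial UMIs), Cntn2 in 86.3% at 433 CPM, Hs6st2 in 78.6% at 332 CPM and Adamts2 in 37.4% at 79.7 CPM.

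Igfbpl1 was most abundant in newborn neurons, followed by the upper-layer gate. As a sum over cells it stood at 2299 CPM [2232 to 2367] in 225 Eomes-positive newborn neurons, which passed the same excitatory gate but carried Eomes. The upper-layer gate as a whole, chosen without Igfbpl1, held 1641 CPM [1623 to 1658]. Interneurons, which come from another part of the brain, came next at 573 CPM in 141 cells. The layer VI gate held 393 CPM [379 to 407] in 768 cells, and the layer IV gate, chosen on Rorb, Inhba, Lpl and Nwd2, stood at 105 CPM [101 to 111] in 1236 cells. The upper-layer gate was thus 15.6-fold [14.8 to 16.3] above the layer IV gate and 4.18-fold above the layer VI gate, and the newborn neurons were above all of them. The layer V gate (69.6 CPM) and oligodendrocyte precursors (77.8 CPM) were the lowest of the gates of over 100 cells, and their intervals, 59.9 to 80.4 and 61.6 to 97.0 CPM, overlapped.

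**Figure D1:**
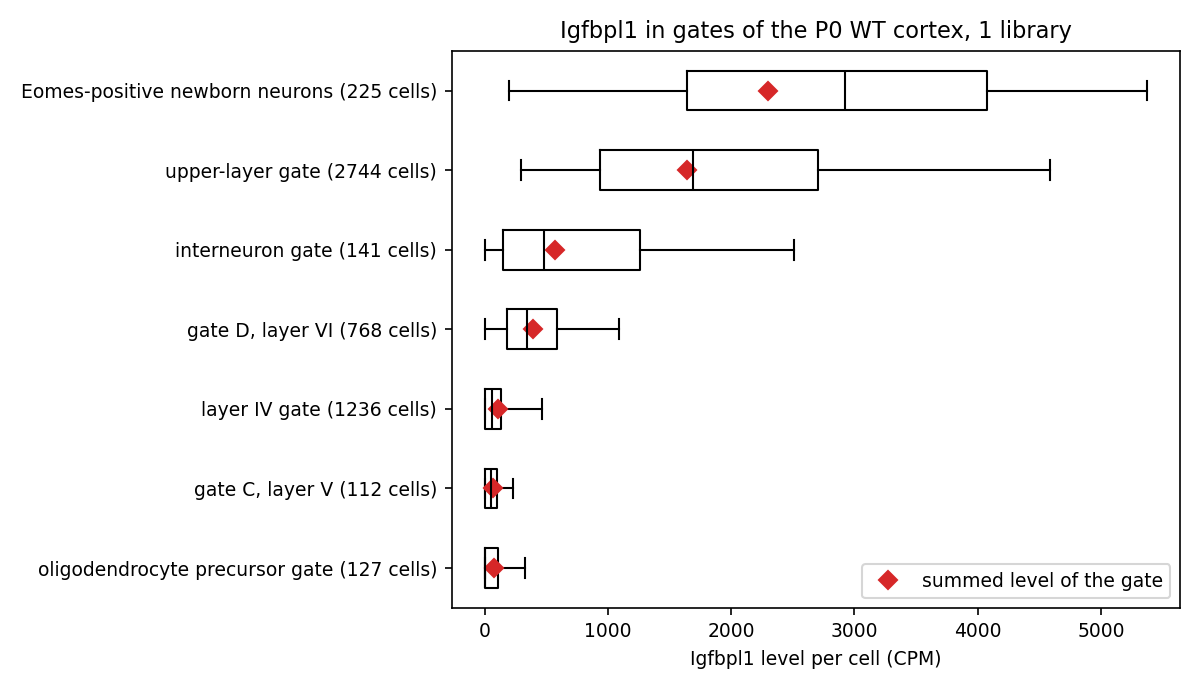
Igfbpl1 per cell in CPM (horizontal axis) for 7 gates of the WT library; boxes give quartiles and medians over cells, whiskers the 5th to 95th percentile, and diamonds the summed level of each gate. Newborn neurons (2299 CPM) and the upper-layer gate (1641 CPM) stand to the right of the layer VI (393 CPM) and layer IV (105 CPM) gates.

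At equal depth the shares of cells with Igfbpl1 came in the same order, but the intervals of some neighbours overlapped. When each cell was thinned to 2000 UMIs, which left out 59 upper-layer cells and 1 layer IV cell as too shallow, Igfbpl1 was found in 88.7% of the upper-layer gate against 98.2% unthinned. It was found in 91.5% of newborn neurons (97.8% unthinned), 51.8% of the layer VI gate (92.4%) and 17.2% of the layer IV gate (53.2%). The thinned interval of newborn neurons, 87.1 to 94.8%, took in that of the upper-layer gate, 87.5 to 89.9%. Interneurons gave 59.0% thinned, and their interval of 50.3 to 67.3% overlapped that of the layer VI gate, 48.2 to 55.4%. Oligodendrocyte precursors gave 13.0% thinned and 33.1% unthinned at a median depth of 7733 UMIs, against 7167 UMIs in the upper-layer gate. They give a level that free RNA may leave in cells of another type, but 1 that may be too low. The precursors were chosen with no UMI of Neurod2 or Neurod6, which leaves out those that held such RNA of excitatory neurons. The thinned layer V share of 12.5% was no higher than the share of the precursors. A microglia gate of only 13 cells, chosen without that condition, held 304 CPM [205 to 434] of Igfbpl1 and gave 30.8% thinned. Its 30 Igfbpl1 UMIs lay in 6 of the 13 cells, with a median of 0 and an upper quartile of 151 CPM per cell. The summed level thus rested on few cells. The wide interval of the thinned microglia share, 9.09 to 61.4%, took in the layer IV and layer VI shares. The interval of the thinned layer IV share, 15.1 to 19.4%, overlapped that of the precursors, 7.62 to 20.3%.

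Markers that the rule did not use were compared between the members and the layer VI gate at matched depth, 767 cells on each side. All such comparisons below drew equal numbers of cells per bin of total UMIs and covered genes with a mean of at least 20 CPM outside the rule, and a gene is called higher or lower when its CPM ratio was at least 1.5 either way. Of 6774 genes compared, 7.81% were higher and 12% lower in members. Among upper-layer genes 14 of 18 were higher and 3 lower, and among deep-layer genes 15 of 17 were lower and 2 higher. Cux1 and Cux2, homeobox factors of the upper layers, stood at 433 against 49.7 CPM and 172 against 10.3 CPM. Pou3f1 was 20.3-fold and Lhx2 12.6-fold higher. Bcl11b (39.6 against 531 CPM), Tle4 (43.5 against 831 CPM), Fezf2 (12.8 against 184 CPM) and Sox5 (67.1 against 835 CPM), regulators of deep-layer neurons, were lower. Against layer VI, most compared genes of both lists, which are outside the gate, differed in the direction of the label. These lists were drawn up with earlier results of these data known, so the counts describe the cells and are not support. The layer VI gate was itself chosen for a layer VI score at least 2 times the upper-layer score. Part of this separation was thus set by the gates, and it does not set members apart from layer IV. Radial glia and astrocyte markers summed to 857 against 273 CPM, intermediate progenitor markers to 239 against 107 CPM, endothelial and mural markers to 23.2 against 5.36 CPM, those of oligodendrocyte precursors to 19.3 against 2.55 CPM and interneuron markers to 134 against 646 CPM. Ptprz1, one of the radial glia and astrocyte markers, held much of such sums in members, as given further on. The interneuron markers include Npy, which alone stood at 616 CPM over all cells of the layer VI gate and 76.7 CPM over all members. Both gates allowed at most 1 UMI of Gad1 and Gad2. Of the cells drawn, 51 members against 18 of the layer VI cells were called doublets. Their part in these differences was not tested.

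For the word young, the members were set beside the layer IV gate, 695 cells on each side. Matching drew deeper members, with a median of 11061 UMIs and 1138 CPM of Igfbpl1, against 7180 UMIs and 1668 CPM over all members. Here 4.23% of 6659 genes were higher and 6.04% lower in members. Of 42 synapse and excitability genes 20 were lower and 2 higher, with a summed ratio of 0.73 [0.73 to 0.74]. Nrgn, a postsynaptic calmodulin-binding protein, was at 96.2 against 586 CPM, Syt1, the calcium sensor of vesicle release, at 110 against 332 CPM, and Snap25, a fusion protein of vesicles, at 127 against 216 CPM. Of 19 genes of immature neurons 2 were higher and 3 lower, with a summed ratio of 0.891 [0.887 to 0.895], and Gap43, a growth cone protein, was one of the lower genes at 670 against 1724 CPM. This list therefore did not bear out the word young. Of 9 newborn and migrating neuron genes that could be compared 4 were higher and 0 lower, among them Sema3c, a secreted semaphorin (59.6 against 5.43 CPM), Unc5d, a netrin receptor of migrating neurons (91.9 against 18.6 CPM), and Insm1, a zinc finger factor of neurogenic progenitors (88.1 against 17.8 CPM). Of 18 upper-layer genes 5 were higher and 3 lower, with a summed ratio of 0.86 [0.85 to 0.87] and a median log2 ratio of −0.07 beside 0.03 over all genes. The sum takes in Mef2c, an abundant gene that was higher in the layer IV gate than in any of the 5 groups of members described further on. Cux1 was 1.88-fold and Cux2 2.18-fold higher in members. Radial glia and astrocyte markers summed to 919 CPM in members against 435 CPM in the layer IV gate. Much of this sum in members was Ptprz1, which lay between 447 and 584 CPM in the 5 groups of members described further on. Intermediate progenitor markers summed to 233 against 135 CPM, Cajal-Retzius markers to 88.0 against 10.3 CPM and dividing-cell markers to 72.9 against 56.7 CPM. Endothelial and mural markers summed to 22.9 against 3.02 CPM and those of oligodendrocyte precursors to 19.5 against 4.23 CPM, whereas red blood cell markers were at 6.43 against 6.52 CPM. Interneuron markers summed to 177 against 702 CPM, of which Npy made up 144 and 678 CPM. Of the members drawn at this depth 89 were called doublets against 25 of the layer IV cells, and the part of doublets and of these other cells in the differences was not tested.

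Beside the 225 Eomes-positive newborn neurons, with 225 members at matched depth, 5.75% of 6942 genes were higher and 9.8% lower in members. Of 15 newborn and migrating genes 4 were higher and 9 lower. Rnd2, a small GTP-binding protein of radial migration, stood at 55.0 against 280 CPM, Neurod1, a proneural factor, at 42.7 against 130 CPM, and Ezr, a linker of membrane and actin, at 23.9 against 236 CPM. Of 17 upper-layer genes 6 were higher and 2 lower, with Cux1 at 416 against 244 CPM and Cux2 at 166 against 100 CPM. Nrp1, a semaphorin receptor, was 1.89-fold [1.56 to 2.28] higher in members. Radial glia and astrocyte markers summed to 811 CPM in members against 1570 CPM in newborn neurons, intermediate progenitor markers to 285 against 643 CPM, dividing-cell markers to 83.5 against 170 CPM and interneuron markers to 167 against 240 CPM. Cajal-Retzius markers went the other way at 95.2 against 8.14 CPM. Npy, one of the interneuron markers, alone stood at 194 CPM over all newborn neurons and 76.7 CPM over all members. The part of Npy and of these other cells in the differences was not tested. Eomes itself separated these groups by rule and is not a result, and 15 of these members against 31 of the newborn neurons were called doublets.

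The comparison named by the rule, members against gated cells without Igfbpl1, rested on those 49 cells alone. Between 49 cells on each side 12.1% of 7026 genes were higher and 17.9% lower in members, but the interval excluded 1 for only 227 of the higher and 418 of the lower genes. When Igfbpl1 was read after thinning each cell to 2000 UMIs, in a random draw of its own, 306 cells stood on each side and 58 genes were higher and 133 lower. The cells counted as without Igfbpl1 and the size of the groups changed together there, and their parts cannot be told apart. Among genes with a mean of at least 50 CPM and an interval excluding 1, the 12 largest differences on the lower side included Fabp7, Hes5, Aldoc, Tnc, Vim, Apoe and Sox2, all genes of radial glia and astrocytes. For Fabp7 the UMIs came from few cells, and the other genes named here were not counted cell by cell. Of the 49 cells 7 held between 8 and 332 Fabp7 UMIs, and each of the other 42 held at most 2. In those 7 cells Fabp7, a fatty acid binding protein of radial glia, reached 14730 CPM against 37.6 CPM in the other 42 and 89.0 CPM in members, and Slc1a3, a glial glutamate transporter, reached 1501 against 37.6 and 28.7 CPM. At least 5 Fabp7 UMIs were found in 30 members (1.11%).

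Without cells of at least 5 Fabp7 UMIs, 42 cells on each side, 13.6% of 6920 genes were higher and 19.4% lower in members, with the interval excluding 1 for 182 and 296 of them. Synapse and excitability genes were lower in 14 of 42 and higher in 2, with a summed ratio of 0.78 [0.74 to 0.82] and a median log2 ratio of −0.38 beside −0.05 over all genes compared. Nrgn was at 49.4 against 199 CPM and Syt1 at 98.8 against 305 CPM. Adhesion genes were lower in 13 of 32, led by Nrcam, an axonal adhesion protein, at 45.6 against 229 CPM. Npy, a neuropeptide also listed as an interneuron marker, had the lowest ratio of the genes of at least 50 CPM, at 22.8 against 432 CPM. Higher in members were Insm1 (137 against 37.6 CPM), Zbtb20, a zinc finger repressor (521 against 154 CPM), Tshz2 (98.8 against 11.3 CPM, or 3 UMIs in the cells without Igfbpl1) and Nkain3 (83.6 against 18.8 CPM). Tshz2 went the other way within the members, at 16.2 CPM in those with the most Igfbpl1 and 60.8 CPM in those with the least, groups that are described further on. Unc5d was 2.81-fold [1.27 to 6.83] higher. Cux1 and Cux2 had intervals that included 1. Radial glia and astrocyte markers summed to 832 CPM in members against 541 CPM in the cells without Igfbpl1, intermediate progenitor markers to 281 against 128 CPM and interneuron markers to 57.0 against 466 CPM. Oligodendrocyte precursor markers were at 0 against 41.4 CPM. The part of these cells in the differences was not tested.

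Because nearly every gated cell carried Igfbpl1, the members were also divided by how much of it they held. This division was chosen after the number of cells without Igfbpl1 had been seen. They were split into 3 equal groups by Igfbpl1 CPM per cell, here called Igfbpl1-low (up to 1220 CPM), Igfbpl1-middle and Igfbpl1-high (from 2338 CPM). As many as 225 and 286 members lay within 10% of these limits, so the groups are ranges set by these limits. Cells with the most Igfbpl1 held fewer UMIs, with a median of 5769 UMIs in Igfbpl1-high and 9062 in Igfbpl1-low members, and fewer of them were called doublets (10 against 64). After matching, 368 cells on each side had medians of 7052 and 7253 UMIs, 7 and 9 doublet calls, and 3156 against 756 CPM of Igfbpl1. Of 6735 genes compared 477 (7.08%) were higher in Igfbpl1-high than in Igfbpl1-low members and 337 (5%) were lower. Of the higher genes 473 and of the lower genes all 337 had an interval that excluded 1.

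Genes of newborn and migrating neurons were higher in the members with the most Igfbpl1, in 7 of the 12 that could be compared and lower in 1, with a median log2 ratio of 1.42 beside 0.05 over all genes and a summed ratio of 1.38 [1.33 to 1.43]. The median was 0.59 when genes under a mean of 50 CPM were left out. The lists were drawn up with earlier results of these data known, so these counts describe the cells and are not support. Rnd2, Sema3c, Unc5d and Sstr2 are also among the 12 largest ratios given below. Rnd2 stood at 135 against 11.4 CPM and was found in 111 against 25 of 368 cells. Sema3c stood at 298 against 30.2 CPM, in 218 against 46 cells. Unc5d stood at 372 against 57.1 CPM, in 282 against 85 cells. More Igfbpl1-high cells carried each transcript, and the 5 richest of them held 14.2% of the Rnd2, 6.41% of the Sema3c and 6.03% of the Unc5d UMIs. Sstr2, a somatostatin receptor of migrating neurons, was at 143 against 22.9 CPM, Ezr at 44.5 against 7.75 CPM, Neurod1 at 66.5 against 22.4 CPM and Insm1 at 200.3 against 82.8 CPM. Prdm8, a PRDM family repressor, went the other way at 62.3 against 96.3 CPM, and Zbtb18, a zinc finger repressor, was at 1463 against 1563 CPM.

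Among genes with a mean of at least 50 CPM and an interval excluding 1, the 12 with the largest ratios toward high Igfbpl1 were Pcp4, Rnd2, Sema3c, Cdk6, Svet1, Gm9911, Unc5d, Sstr2, Gm45652, Wbscr17, Cdh4 and Nfia. Pcp4, a calmodulin-binding peptide better known from deep layers, had the largest ratio of these at 96.0 against 7.75 CPM, 12.4-fold [7.75 to 20.9], and was found in 89 against 10 cells. Svet1, Gm9911 and Gm45652 lie inside Unc5d on the same strand in the GENCODE M21 annotation, so that 4 of the 12 names share a single locus. Whether their reads were separated in the counting was not tested. Cdk6, a cyclin-dependent kinase of the G1 phase, was at 88.9 against 11.4 CPM. Cdh4, a cadherin, was at 304 against 77.9 CPM. Nfia, a nuclear factor I protein, was at 317 against 81.6 CPM, and its relative Nfib was at 3384 against 1482 CPM.

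Under the same limits, the 12 genes with the largest ratios toward low Igfbpl1 were Gucy1a3, Dync1i1, Sybu, Mef2c, Nectin3, Eml1, Lrfn5, Pcdh7, Sla, Ccbe1, Arl4a and Dtx4. Mef2c, a transcription factor of maturing excitatory neurons and their synapses, was the most abundant at 814 against 3436 CPM, and was found in 280 against 361 cells. Gucy1a3, a subunit of the nitric oxide receptor, stood at 27.0 against 137 CPM. Dync1i1, a neuronal dynein chain, stood at 33.6 against 161 CPM. Sybu, a kinesin adaptor of axonal transport, was at 23.7 against 111 CPM, and Eml1, a microtubule-binding protein, at 25.8 against 91.0 CPM. Nectin3 (45.3 against 189 CPM), Lrfn5 (48.6 against 166 CPM) and Pcdh7 (33.7 against 114 CPM) encode cell adhesion proteins.

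Synapse and excitability genes were mixed. Of 38 compared 12 were lower and 3 higher in Igfbpl1-high members, with a median log2 ratio of −0.21 and a summed ratio of 0.94 [0.93 to 0.96]. On the lower side were Syt1 (32.0 against 95.5 CPM), Scn2a, a sodium channel (52.8 against 128 CPM), Camk2b, a calcium-dependent kinase (102 against 263 CPM), and Grin2b, an NMDA receptor subunit of the young brain (180 against 346 CPM). On the higher side were Kcnq3, a potassium channel subunit (110 against 37.5 CPM), and the AMPA receptor subunits Gria1 (36.6 against 14.7 CPM) and Gria3 (31.2 against 19.6 CPM). Snap25 at 86.0 against 117 CPM and Rbfox3 at 104 against 107 CPM did not reach the fold.

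The summed level of general genes of immature neurons differed little, with a ratio of 0.97 [0.96 to 0.98]. Of 20 compared 3 were higher and 2 lower, beside 7.08% higher and 5% lower over all genes. Sox11, a SoxC factor of young neurons, was at 6628 against 3385 CPM, and Ccnd2, a cyclin, at 68.1 against 17.1 CPM. Gap43 was at 238 against 492 CPM and Stmn2, a microtubule regulator of growth cones, at 1037 against 1806 CPM. Dcx, a microtubule-binding protein of migrating neurons, was at 1187 against 1027 CPM and Tubb3, neuronal tubulin, at 1838 against 2347 CPM, both inside the fold.

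**Figure D2:**
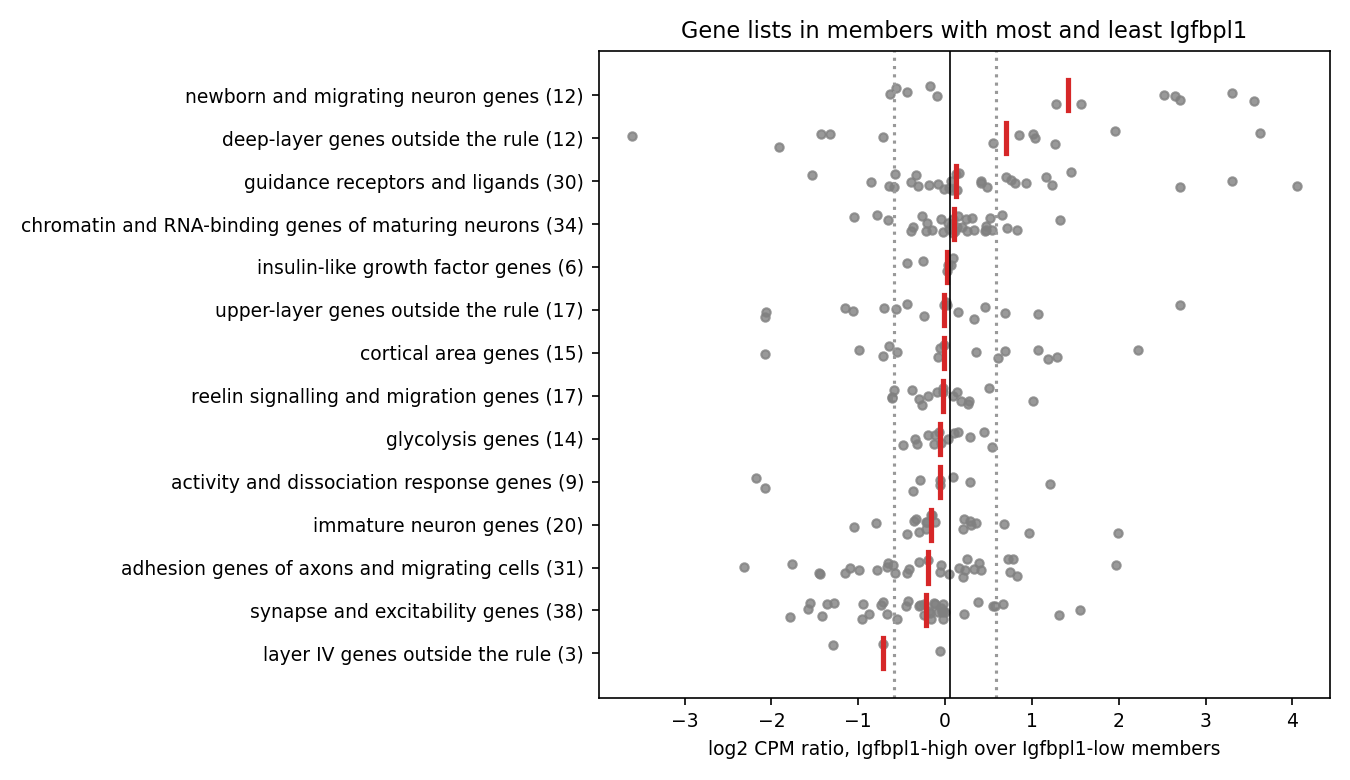
Each point is a gene of a list (number compared in brackets) at its log2 CPM ratio of Igfbpl1-high over Igfbpl1-low members, 368 cells each; red bars are list medians, dotted lines the 1.5-fold limits and the black line the median of all genes (0.05). The newborn and migrating list has the highest median (1.42), while points of the synapse list lie on both sides around −0.21.

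Genes of upper-layer identity were split. Of 17 compared 3 were higher and 5 lower, with a median log2 ratio of −0.01 and a summed ratio of 0.757 [0.741 to 0.773]. The low sum came through Mef2c. From the lowest to the highest of the 5 groups described further on, the list went from 8903 to 6096 CPM and Mef2c alone from 3964 to 479 CPM. The rest of the list was thus not lower. Cux1 stood at 468 against 465 CPM with a ratio of 1.01 and Cux2 at 215 against 193 CPM with a ratio of 1.11. Id2, an inhibitor of basic helix-loop-helix factors, was at 875 against 417 CPM and Lhx2, a LIM homeobox factor, at 451 against 279 CPM, while Ptprk (189 against 395 CPM) and Dok5 (121 against 197 CPM) joined Mef2c and Nectin3 on the lower side. Deep-layer genes were split as well, with 6 of 12 higher and 5 lower, a summed ratio of 1.53 [1.44 to 1.63] and a median log2 ratio of 0.70. This median was −0.02 among cells above the median depth. The higher sum came mostly through Nfia and Pcp4. From the lowest to the highest of the 5 groups the list went from 738 to 1265 CPM, Nfia from 57.0 to 434 CPM and Pcp4 from 8.85 to 153 CPM. Besides Pcp4 and Nfia, Tbr1 was at 180 against 89.4 CPM, Tle4 at 44.5 against 21.6 CPM and Bcl11b at 51.5 against 28.6 CPM. The levels of Tle4 and Bcl11b in both groups were far under those of the layer VI gate. Nr4a2, an orphan nuclear receptor, was at 6.23 against 75.9 CPM, but 5 cells held 66.7% of its UMIs in Igfbpl1-low members.

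Guidance genes leaned toward the cells with the most Igfbpl1, 10 of 30 higher and 4 lower, with a summed ratio of 1.43 [1.40 to 1.47] and a median log2 ratio of 0.13. Sema3c and Unc5d, given above, are counted in this list as well. Sema5a, a transmembrane semaphorin, had the largest ratio of the list at 54.0 against 3.27 CPM, in 82 against 7 cells. Nrp1 was at 269 against 98.4 CPM, Robo1, a Slit receptor, at 92.2 against 41.2 CPM, Plxna2, a plexin that signals with neuropilins, at 657 against 387 CPM, and Epha5, an ephrin receptor, at 981 against 563 CPM. Unc5c, the relative of Unc5d, went the other way at 35.3 against 102 CPM. Of 31 adhesion genes 5 were higher and 11 lower. Cntn1, an axonal contactin, was at 8.72 against 43.3 CPM and Nrcam at 20.8 against 56.3 CPM, whereas Ptprs (609 against 342 CPM) and Tenm4 (323 against 195 CPM) were higher.

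In the reelin and migration list 1 of 17 was higher and 2 were lower, beside 7.08% higher and 5% lower over all genes. Lrp8, a reelin receptor, was at 395 against 195 CPM, whereas Dab1, the adaptor on which reelin receptors signal, was at 391 against 597 CPM, and Vldlr, the other receptor, at 69.8 against 104 CPM with a ratio of 0.67 that did not reach the fold. Among area genes 6 of 15 were higher and 4 lower, with Pax6 at 39.9 against 8.57 CPM and Emx2 at 29.9 against 12.2 CPM. Of 34 RNA-binding and chromatin genes 4 were higher and 3 lower, not far from the shares over all genes. Elavl4 was at 125 against 50.2 CPM and Khdrbs2 at 94.3 against 195 CPM. The glycolysis list had 0 of 14 past the fold in either direction. In the list of genes that respond to activity or dissociation, Ier5 was at 210 against 90.6 CPM, while Npy and Fos were lower with 63.6% and 53.5% of their UMIs in Igfbpl1-low members held by 5 cells.

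The insulin-like growth factor genes, the family that gives Igfbpl1 its name, showed 0 of 6 past the fold. Over all genes 7.08% were higher and 5% lower, and 6 genes are too few to set against those shares. Igf1r, the receptor, was at 175 against 171 CPM, Insr, the insulin receptor, at 56.1 against 53.5 CPM and the adaptor Irs2 at 51.9 against 48.6 CPM. The binding protein Igfbp2 was at 121 against 145 CPM. Igfbp4 (20.4 against 7.75 CPM) and Irs1 (14.5 against 6.94 CPM) had ratios of 2.63 and 2.10 at levels under those compared. The ligands were nearly absent, with Igf2 at 0 UMIs in both groups and Igf1 at 0.42 and 0.41 CPM.

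Along 5 equal groups by Igfbpl1, with 163 cells of matched depth in each, these genes differed by degrees. Igfbpl1 itself, by construction, went from 556 through 1135, 1723 and 2505 to 3809 CPM. Unc5d went from 35.4 through 105, 135 and 278 to 460 CPM. Mef2c went from 3964 through 2579, 1798 and 906 to 479 CPM. Both differed across the whole range, whereas Rnd2 (11.8, 8.93, 24.9, 59.1 and 214 CPM) and Pcp4 (8.85, 3.97, 6.97, 40.1 and 153 CPM) were low outside the upper groups. Cux1 was level at 474, 504, 454, 482 and 458 CPM.

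**Figure D3:**
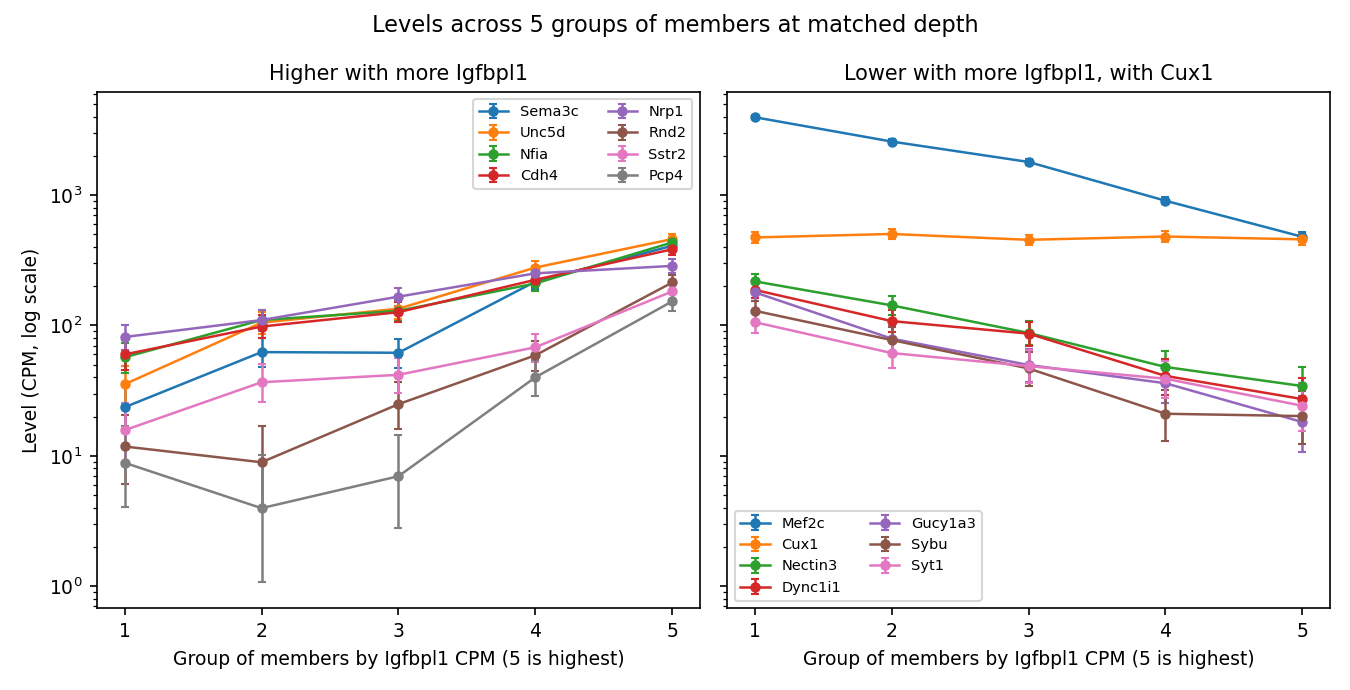
Level in CPM (log axis) of named genes in 5 equal groups of the members ordered by Igfbpl1, 163 cells of matched depth each, with 95% counting intervals. Unc5d lies between 35.4 and 460 CPM and Mef2c between 3964 and 479 CPM from the lowest to the highest group, while Cux1 stays between 454 and 504 CPM.

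The neighbouring gates placed these levels, here over all cells of each group without matching. For all 12 genes higher with Igfbpl1 the Eomes-positive newborn neurons lay above the Igfbpl1-low members, and for 5 of the 12 also above the Igfbpl1-high members. Rnd2 went from 280 CPM in newborn neurons through 137, 21.7 and 11.4 CPM in Igfbpl1-high, -middle and -low members to 17.7 CPM in the layer IV gate. For all 12 genes lower with Igfbpl1 the layer IV gate lay above the Igfbpl1-high members, and for 10 of the 12 above the Igfbpl1-low members. Gucy1a3 stood at 23.7, 61.8 and 203 CPM in Igfbpl1-high, -middle and -low members and at 871 CPM in the layer IV gate. Newborn neurons did not continue this order, as all 12 of these genes were higher in them than in Igfbpl1-high members. Mef2c, for example, was at 1734 CPM in newborn neurons and 733 CPM in Igfbpl1-high members.

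**Figure D4:**
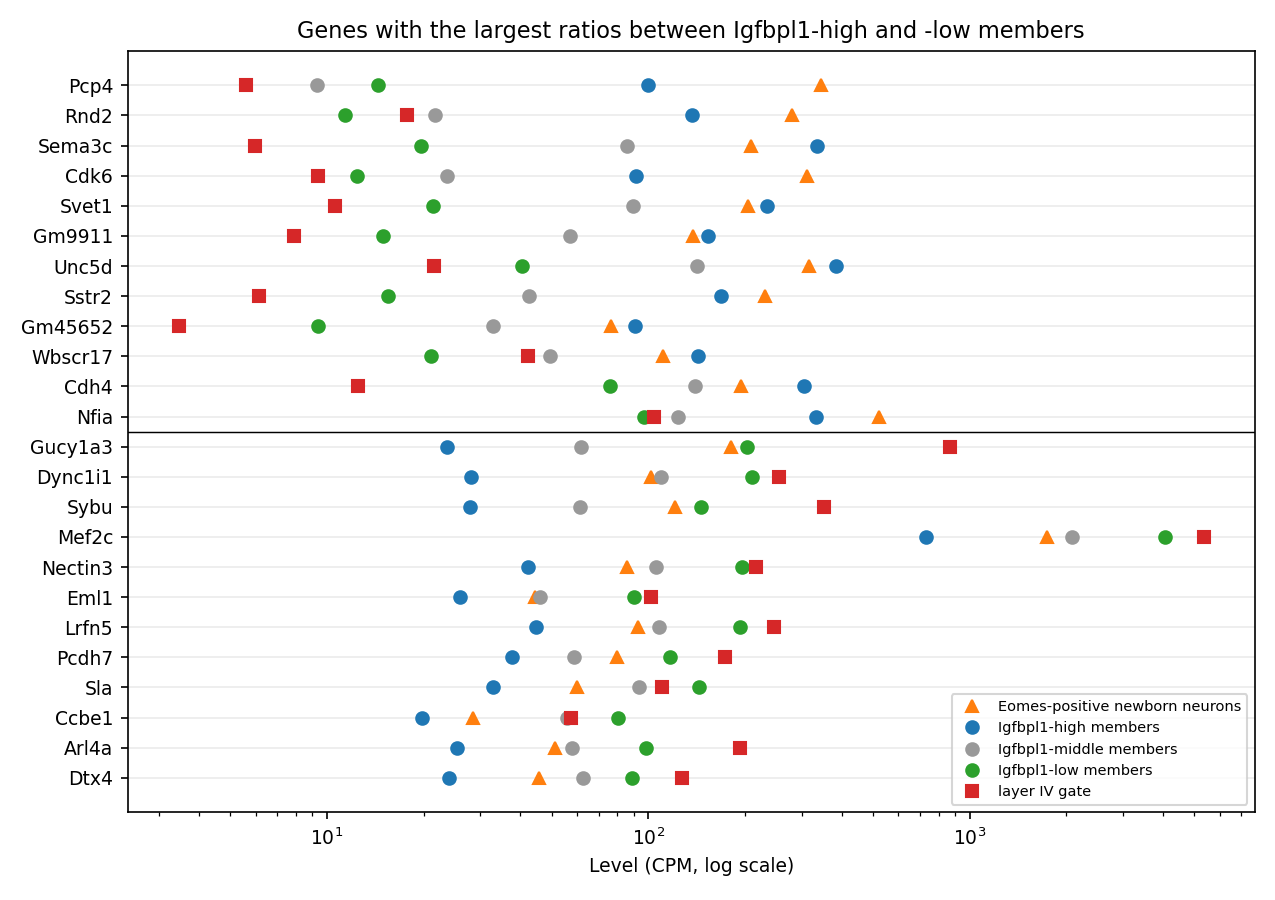
Level in CPM (log axis) of the 12 genes with the largest ratios in each direction between Igfbpl1-high and Igfbpl1-low members (mean of at least 50 CPM, interval excluding 1), in newborn neurons, the 3 groups of members and the layer IV gate, all cells of each group. Above the line newborn neurons lie above the Igfbpl1-low members for all 12 genes and above the Igfbpl1-high members for 5; below the line the layer IV gate lies above the Igfbpl1-high members for all 12 genes, and the newborn neurons lie between Igfbpl1-high and Igfbpl1-low members.

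Cells of the layer IV and layer VI gates were also split, by whether they held an Igfbpl1 UMI, which is not the gradient of the members. The cells with Igfbpl1 held 186 CPM of it in the layer IV and 394 CPM in the layer VI gate. Igfbpl1-high and Igfbpl1-low members at matched depth held 3156 and 756 CPM. Within the layer IV gate, 500 cells with and 500 without Igfbpl1 were compared, and 0.318% of 6606 genes were higher and 0.288% lower. This split rested on as little as 1 UMI, and the thinned share of this gate overlapped that of the precursors, so that free RNA may have placed cells on either side and a low percentage does not show that the cells were alike. Cux2 (77.1 against 45.0 CPM), Cux1 (215 against 132 CPM) and Pou3f3 (326 against 215 CPM) were higher with Igfbpl1, and Nrgn (457 against 791 CPM) was lower, while Syt4, a synaptotagmin, was at 1188 against 1706 CPM. Of the 12 genes higher in Igfbpl1-high members 8 lay on the same side here, 3 of them past the fold, and of the 12 lower genes 4 lay on the same side with 0 past the fold. Mef2c was at 5530 against 5171 CPM, the opposite side. In this gate 27 of the cells with Igfbpl1 were called doublets against 3 of those without. Red blood cell markers summed to 117 against 5.66 CPM, Cajal-Retzius markers to 34.8 against 7.59 CPM and radial glia and astrocyte markers to 462 against 372 CPM. Their part in these values was not tested. In the layer VI gate, with 58 cells on each side, 10.2% of 6748 genes were higher and 9.32% lower. The interval excluded 1 for only 239 of these 687 higher and 242 of these 629 lower genes. In the layer IV gate it did so for all 21 higher and all 19 lower genes. The percentages of these gates rest on unlike numbers of cells and cannot be set side by side. In the layer VI gate 5 of the 12 higher and 3 of the 12 lower genes lay on the same side as in members. The summed newborn ratio was 1.32 [1.18 to 1.49] in the layer VI and 1.12 [1.09 to 1.15] in the layer IV gate. The synapse ratio was 0.91 [0.88 to 0.94] and 0.895 [0.887 to 0.903]. Both summed ratios lay on the same side as in members, whereas the upper-layer ratio, 1.15 and 1.11, lay on the other side. Few genes of the newborn and synapse lists passed the fold. In the layer VI gate 1 of 4 newborn genes was higher and 0 lower, and of 40 synapse genes 2 were higher and 5 lower. In the layer IV gate 2 of 6 newborn genes were higher and 0 lower, and of 42 synapse genes 1 was higher and 1 lower. Interneuron markers summed to 390 CPM in the layer VI cells with Igfbpl1 against 112 CPM in those without. Npy, one of these markers, stood at 616 CPM over all cells of the layer VI gate, where Gad1 and Gad2 were limited by rule. Cajal-Retzius markers summed to 1.83 against 43.2 CPM, and 4 against 0 of the layer VI cells were called doublets. The part of Npy, of other cells and of doublets in these values was not tested.

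Markers of other cells were counted in the matched groups. Radial glia and astrocyte genes summed to 809 CPM in Igfbpl1-high and 817 CPM in Igfbpl1-low members, with 5 cells holding 23.8% of the latter. Ptprz1, found in 84.2% and 85.9% of these cells, made up much of this list. In the lowest of the 5 groups it held 447 of 775 CPM, and in the highest 455 of 796 CPM. Dividing-cell genes summed to 98.5 and 93.5 CPM. Intermediate progenitor genes were at 412 against 238 CPM, and Insm1 is one of them. Interneuron genes were at 57.7 against 107 CPM. In the lowest of the 5 groups Npy held 139 of their 158 CPM, and in the highest 25.2 of 107 CPM. Cajal-Retzius genes were at 50.7 against 75.5 CPM, with 72.4% of the UMIs in Igfbpl1-low members held by 5 cells. Endothelial and mural genes were at 2.49 against 63.3 CPM, with 97.4% of the UMIs in Igfbpl1-low members held by 5 cells, and Pdgfrb and Vtn at 0 in both. Microglial genes had 1 UMI in each group, and C1qb, Cx3cr1, Csf1r, Tyrobp and Aif1 were at 0. The part of these cells in the differences between Igfbpl1-high and Igfbpl1-low members was not tested. Without doublets 450 genes were higher and 349 lower, and without cells of at least 5 Fabp7 UMIs the counts were 470 and 351, which do not say which genes these were.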

How the data were processed

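The authors deposited raw UMI counts per gene and cell for 1 WT library (90346034 UMIs, 11062 cells), with a table of totals per cell that equalled the sums over the counts. A sequencing company ran Cell Ranger, and the submitters' processing notes also name STAR, Seurat and mm9. The Cell Ranger version is not printed here, and the annotation is not given in the sources used here. No coordinates are printed. The design also names a knock-in group, not analysed here.

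Gates, sums and CPM (without 37 mitochondrial genes) were computed in Python 3.11.15 (numpy 2.4.6, scipy 1.17.1). Groups were matched in bins of 0.25 log2 UMIs (seed 1). Intervals were exact: Poisson for CPM, conditional binomial for ratios, Clopper-Pearson for shares. UMI sharing by free RNA is not covered. Doublets were called with Scrublet in scanpy 1.11.5 (626 cells, 5.66%) and kept. Scripts were tested on simulated data. Named genes were the 12 with the largest ratio each way at a mean of at least 50 CPM with an interval excluding 1, then the 2 highest and 2 lowest of each list, and insulin-like growth factor genes of at least 5 CPM. Others named within a list were picked after their values were seen. The members and the 23 lists were chosen with earlier results of these data known. Of 475 list entries 467 were in the table. Some genes are counted but not reported here by name.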

Additional observations from a re-analysis of the deposited data

How the results depend on the processing

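With 1 library the values say nothing of animals, and the comparison with cells lacking Igfbpl1 is limited by 49 cells. No paired analysis was possible because only 1 library was analysed. The cause of each shift below was not tested. Of the 24 genes with the largest ratios between Igfbpl1-high and Igfbpl1-low members (12 each way), 0 reversed under the 16 alternatives run. These genes were chosen for large ratios in the same cells that the alternatives reuse, so this count is no support for them. The other genes named for that comparison were not put through the alternatives.

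The share of gated cells with Igfbpl1 was 98.9% at a score of at least 8, 96.4% at 2 or more Igfbpl1 UMIs, 98.7% at 2000 genes and 88.6% after thinning (a second random draw, apart from that behind the 88.7% given above). The Igfbpl1 ratio to the layer IV gate was 17.5 at 4-fold dominance, 18.8 without doublets, 11.6 in cells above and 17.0 in cells below the median depth. For cells with against without Igfbpl1, the genes higher and lower were 58 and 133 after thinning Igfbpl1, 330 and 436 at 50 CPM, 3552 and 5080 with no CPM filter and 1963 and 1890 below the median depth. Those higher were 522 without matching and 524 with all members weighted, an alternative added later. For Igfbpl1-high against Igfbpl1-low members they were 219 and 179 after thinning, 167 and 135 at 50 CPM, 4663 and 4571 with no filter, and 824 and 611 between the outer of 5 groups (added later). Those higher were 303 above the median depth.

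The summed newborn ratio, 1.25 with against without Igfbpl1, was 1.12 after thinning, 1.41 at 2000 genes, 1.09 above and 1.07 below the median depth. For Igfbpl1-high against low, 1.38, it was 1.32 at a score of 8, 1.25 after thinning, 1.24 above the median depth, 1.53 between the outer of 5 groups, 1.44 unmatched and 1.33 without cells of 5 or more Fabp7 UMIs. The median log2 ratio of that list, 1.42, lay between 0.59 (at 50 CPM) and 1.91 (unmatched). The synapse ratio, 0.89, was 0.79 at a score of 8, 0.97 after thinning, 0.85 at 2 Igfbpl1 UMIs, 0.85 unmatched, 0.79 below the median depth and 0.78 without Fabp7 cells. For Igfbpl1-high against low, 0.94, it was 0.97 after thinning, 0.96 at 2000 genes, 0.88 between the outer of 5 groups, 0.93 unmatched and 0.89 below the median depth.

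Reversed, among ratios with against without Igfbpl1, were Usp29 (0.58) and Atf7 (0.43) at a score of 8, Zfyve27 (0.65) without doublets, Gpc6 (0.86) without cells over 10% mitochondrial, and Aldoc (2.02) without Fabp7 cells, each on few UMIs. The layer IV list median became 0.068 without Fabp7 cells. The deep-layer median of Igfbpl1-high against low, 0.70, became −0.021 above the median depth.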
